A study of Mus musculus with 6 samples.

Results

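The choroid plexus epithelium was followed through 10 marker genes, Ttr, Folr1, Kl, Clic6, Aqp1, Cldn2, Sostdc1, Kcne2, Otx2 and Calml4, out of 18193 genes with a probe set of their own. The rule names the genes as markers of this cell type and uses no measured value, but the list was drawn up with earlier results of these data known. Their 17 probe sets were those whose platform annotation gives exactly 1 symbol, and for the 5 genes with more than 1 probe set the one with the highest mean stood for the gene. All 10 lay above the median of their array on all 6 arrays, so every member was tested.

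The tissue was hippocampus of single housed male DBA/2 mice that took up venlafaxine, an inhibitor of serotonin and noradrenaline reuptake used against depression, with their drinking water for 30 days. The control group received 0, the low dose group 30 and the high dose group 100 mg per kg body weight per day, with 10 animals in each group, and the age of the mice is not given in the sources used here. Total RNA was pooled within each dose group by brain side, and 6 Affymetrix arrays were hybridized, 1 for each pool. Control replicate 1 and low dose replicate 1 were right pools of the first hybridization date. The left pools of that date were low dose replicate 2 and high dose replicate 1. The arrays of the later date held a left pool, control replicate 2, and a right pool, high dose replicate 2. Within the control and the high dose group, side and date therefore change together and cannot be told apart. Whether the left and the right pool of a group came from separate brains is not stated, and p-values therefore reflect only how far pools of a group lie apart, which may be technical.

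The choroid plexus is a folded sheet of epithelium around leaky capillaries that hangs into the brain ventricles and secretes cerebrospinal fluid. Its epithelial cells pump ions and water from the blood side to the ventricle, seal the passage with tight junctions and release carrier proteins and growth factor antagonists. The plexus of the lateral ventricle lies against the hippocampus along the fimbria, so a hippocampal dissection can carry some of it. In pooled tissue, fewer epithelial cells and less RNA per cell cannot be told apart. As a check of the labelled tissue, 12 of 12 measured markers of hippocampal neurons, such as Prox1, Neurod6 and Camk2a, passed the filter on dim probe sets. So did 8 of 8 thalamic and 6 of 6 neocortical markers, so the filter does not tell hippocampus from its neighbours.

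Promoter windows are shown for the 3 members with the widest range over the arrays, Kl, Kcne2 and Otx2, because these genes moved together and because Otx2 encodes a homeodomain factor of the plexus that binds DNA around the letters TAATCC. Windows came from RefSeq on build GRCm38.p6, which held 10 windows for 6 of the members. Otx2 has 4 windows there and Kcne2 has 2, from different start sites, and for each gene only the window that holds the motif core is shown; the other windows of both genes lack it. Each line runs 5′ to 3′ on the gene's strand from 250 bases before to 30 bases after a start site. Capitals mark TAATC or its reverse complement GATTA, the core of that motif.
Kl, chr5:150952357-150952636, plus strand: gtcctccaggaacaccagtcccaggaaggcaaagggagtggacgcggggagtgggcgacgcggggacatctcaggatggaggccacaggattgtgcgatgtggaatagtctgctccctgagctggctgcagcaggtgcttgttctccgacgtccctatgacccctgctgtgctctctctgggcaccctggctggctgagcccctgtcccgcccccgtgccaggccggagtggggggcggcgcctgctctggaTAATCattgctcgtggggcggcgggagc
Kcne2, chr16:92292139-92292418, plus strand: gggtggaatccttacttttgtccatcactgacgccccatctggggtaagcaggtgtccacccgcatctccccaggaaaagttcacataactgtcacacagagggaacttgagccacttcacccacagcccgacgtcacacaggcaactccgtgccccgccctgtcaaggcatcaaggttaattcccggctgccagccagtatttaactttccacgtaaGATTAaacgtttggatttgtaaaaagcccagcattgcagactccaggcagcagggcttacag
Otx2, chr14:48665080-48665359, minus strand: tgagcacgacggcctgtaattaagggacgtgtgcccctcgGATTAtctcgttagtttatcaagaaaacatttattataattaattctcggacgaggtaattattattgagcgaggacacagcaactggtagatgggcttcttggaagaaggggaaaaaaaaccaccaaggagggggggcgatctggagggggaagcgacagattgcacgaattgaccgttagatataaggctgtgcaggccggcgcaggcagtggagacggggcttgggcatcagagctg
The core lies at bases 3 to 7 from the start site of Kl, at -32 to -28 from that of Kcne2 and at -210 to -206 from that of Otx2, and both strands were searched over windows of 300 bases that end 50 bases after the start site. It was found in 3 of the 10 member windows and in 22.0% of all 32851 windows. The longer TAATCC, which overlaps it, was found in 1 member window, that of Otx2, and in 7.06% of all windows. These matches are descriptions of the letters.

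Over the 6 arrays 9 of the 10 members had the same lowest array, and Ttr departed from them. The members' mean level, each gene taken relative to its own mean, was -0.0091 and -0.32 log2 in control replicates 1 and 2, 0.0089 and 0.21 in low dose replicates 1 and 2, and -0.18 and 0.29 in high dose replicates 1 and 2. Control replicate 2 was the lowest array for 9 of the 10 genes, and high dose replicate 2 the highest for 7, with low dose replicate 2 the highest for the other 3. Over all 11743 tested genes, 34.6% were lowest on control replicate 2 and 10.1% highest on high dose replicate 2. The range over the arrays ran from 0.46 log2 for Aqp1 to 0.87 for Kl.

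**Figure D1:**
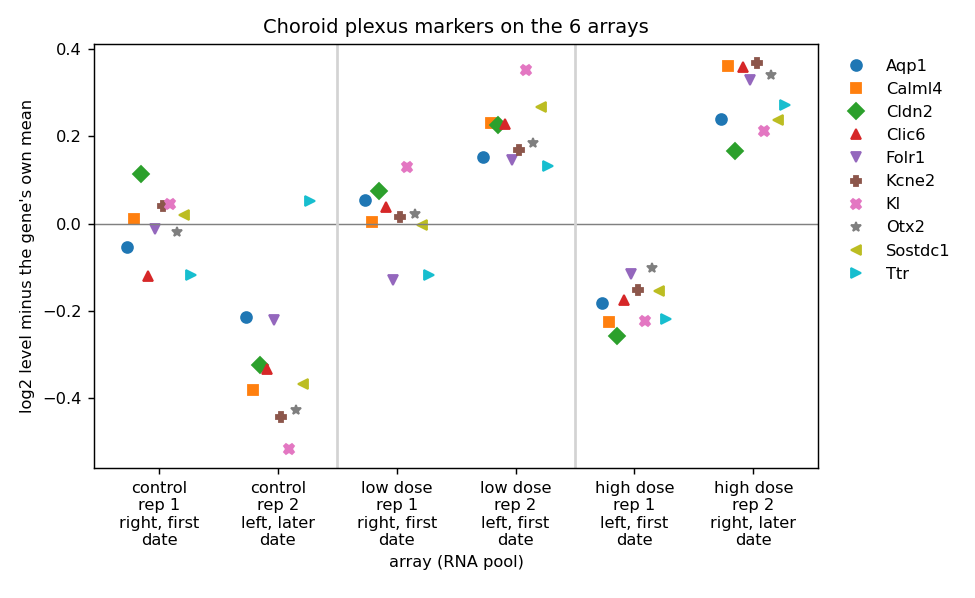
Log2 level of each of the 10 members minus its own mean over the 6 arrays (vertical axis) for each array (horizontal axis), with dose, brain side and hybridization date named below. The points of 1 array cluster: 9 of 10 genes are lowest on control replicate 2, where Ttr stands apart from them, and all 10 lie above their mean on high dose replicate 2 and on low dose replicate 2.

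Ttr and Sostdc1 encode secreted proteins. Ttr encodes transthyretin, the carrier of thyroid hormone that the plexus releases into cerebrospinal fluid, and measured 14.92 and 15.09 log2 in control replicates 1 and 2, 14.92 and 15.17 at the low dose, and 14.82 and 15.31 at the high dose. It was lowest on high dose replicate 1 and highest on high dose replicate 2, so the high dose pair enclosed all other arrays. Sostdc1, an extracellular antagonist of BMP and Wnt signals, measured 9.27 and 8.88 in the controls, 9.25 and 9.51 at the low dose, and 9.09 and 9.49 at the high dose. Unlike Ttr it was lowest on control replicate 2.

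The probe sets of Ttr disagreed. The one used as the main value, whose name marks probes that may match other transcripts, gave 14.92 and 15.09 in the control pair, so that control replicate 2 was the higher. Another, 1451580_a_at, gave 14.52 and 14.35 in that pair and was lowest on control replicate 2, as the other 9 genes were. Among 45037 probe sets the 4 of Ttr ranked between 1 and 34 on every array, and the main one was first on 4 arrays. Of the other members, Sostdc1 and Clic6 had a second probe set with the same lowest array. That of Clic6 gave 8.97 and 8.74 in the controls and 8.96 and 9.08 at the low dose. Its low dose arrays thus overlapped the controls, unlike those of the main probe set. The second probe sets of Cldn2 and Kl lay above the array median on no array and varied by 0.071 and 0.15 log2.

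Folr1 and Kl encode receptors of the epithelial surface. Folr1, the folate receptor that moves folate into cerebrospinal fluid, measured 8.48 and 8.27 in the controls, 8.37 and 8.64 at the low dose, and 8.38 and 8.82 at the high dose. Kl encodes klotho, a co-receptor for FGF23, and measured 9.64 and 9.07 in the controls, 9.72 and 9.94 at the low dose, and 9.37 and 9.80 at the high dose. Both low dose arrays of Kl lay above both control arrays, whereas those of Folr1 overlapped the controls.

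Aqp1, Clic6, Kcne2 and Cldn2 serve the movement of water and ions. Aqp1, the water channel of the ventricular membrane, measured 8.00 and 7.84 in the controls, 8.11 and 8.21 at the low dose, and 7.87 and 8.30 at the high dose. Clic6, of the chloride intracellular channel family, measured 9.89 and 9.68 in the controls, 10.05 and 10.24 at the low dose, and 9.84 and 10.37 at the high dose. For both genes the low dose arrays lay above the controls and the high dose arrays fell on either side of control replicate 1. Kcne2, an accessory subunit of potassium channels, measured 8.72 and 8.24 in the controls, 8.69 and 8.85 at the low dose, and 8.53 and 9.05 at the high dose. Cldn2, a tight junction claudin that forms pores for small cations, measured 8.95 and 8.51 in the controls, 8.91 and 9.07 at the low dose, and 8.58 and 9.00 at the high dose. In these 2 genes the low dose arrays overlapped the controls.

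Otx2 encodes a transcription factor needed to form and maintain the plexus, and measured 8.22 and 7.81 in the controls, 8.26 and 8.42 at the low dose, and 8.14 and 8.58 at the high dose. Calml4, which encodes a calmodulin-like protein, measured 9.58 and 9.19 in the controls, 9.57 and 9.80 at the low dose, and 9.34 and 9.93 at the high dose. Otx2 was above the controls on both low dose arrays, and Calml4 on 1 of them.

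The first comparison asked whether the markers differed between the low dose and no drug. All 10 had higher low dose means, with a median log2 difference of 0.30, where the median over all tested genes was 0.038 and 67.6% had higher means. The members' median was 0.118 with control replicate 2 left out and 0.487 with control replicate 1 left out, the ends of that range over the 6 arrays. None passed the threshold of an adjusted p under 0.05 (limma with Benjamini-Hochberg adjustment over all 11743 genes, where 0.0426% were called), and the adjusted p was 1.00 for each. At an unadjusted p under 0.05 there were 5 members, against 3.32% of all genes. Kl had the largest difference, 0.48 (SE 0.15), or 1.39-fold, followed by Clic6 with 0.36 (SE 0.13). This order depended on the setting: without control replicate 2 Kl had 0.196 and Clic6 0.252, with RIN as a covariate 0.227 and 0.383, and with the mean of probe sets 0.256 and 0.261. In 4 genes, Kl, Clic6, Aqp1 and Otx2, the low dose arrays lay above the controls without overlap, as they did for 13.4% of all genes. The second probe set of Clic6 did overlap and had a smaller difference, 0.16. Ttr had 0.041 (SE 0.13), with a low dose mean of 15.04 ± 0.18 (SD, n = 2) against a control mean of 15 ± 0.12 (SD, n = 2). Its other probe sets gave 0.24 (1451580_a_at), 0.0997 and 0.059.

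The call on Kl depended on how the spread was modelled. With the hybridization date as a term, Kl (0.445, limma adjusted p = 0.0148) and Clic6 (0.44, adjusted p = 0.0153) passed, but with date and side as terms neither did (adjusted p = 0.249 for both). With the replicate number as a block Kl alone passed (adjusted p = 0.00864), as it did with a trended, robust variance (0.0418). Kl did not pass with side as a term (adjusted p = 0.151) or with RIN (adjusted p = 1.00). Over all alternatives for Kl the adjusted p ran from 2.27e-07 to 1.00. Without control replicate 1 the members called numbered 7, leaving control replicate 2 as the only control, and without either high dose array Kl passed (adjusted p = 0.0350).

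Control replicate 1 and low dose replicate 1 share both side and date. Between these arrays the members had a median difference of -0.0035, with 4 higher and 6 lower at the low dose, while 77.6% of all genes were lower. The differences ran from -0.12 for Folr1 to 0.16 for Clic6, whose second probe set gave -0.014. The left pools, which differ in date, gave a median of 0.59, from 0.082 for Ttr to 0.87 for Kl. The control array of that pair, control replicate 2, was the lowest array for 34.6% of all tested genes. The right pools of the first date thus differed little, and the part of side and date in the higher low dose means was not tested.

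The second comparison, high dose against control, gave higher means for all 10 members, with a median of 0.23 against -0.030 over all tested genes, of which 35.9% had higher means. Leaving out high dose replicate 2 gave a members' median of 0.00729, and leaving out high dose replicate 1 gave 0.446, the ends of the range over single arrays left out. None passed (limma adjusted p = 1.00 for each, 0.00852% of all genes called), and 3 had an unadjusted p under 0.05, against 2.76% of all genes. Otx2 had the largest difference, 0.34 (SE 0.13), followed by Clic6 with 0.32 (SE 0.13) and Kcne2 with 0.31 (SE 0.14). The second probe set of Clic6 gave only 0.12. Sostdc1 had 0.22 by its main and 0.042 by its second probe set. Cldn2 and Ttr had 0.059 each, and the other probe sets of Ttr gave 0.23 (1451580_a_at), 0.070 and 0.048. In no member did the high dose arrays lie wholly above or below the controls, which was so for 8.03% of all genes in the higher and 18.7% in the lower direction. Otx2 averaged 8.36 ± 0.31 (SD, n = 2) at the high dose against 8.02 ± 0.29 (SD, n = 2) without drug, a difference about as large as either spread. Without control replicate 1, Kl, Otx2 and Kcne2 passed, and without high dose replicate 1, Clic6 passed; each fit left a lone array in that group.

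**Figure D2:**
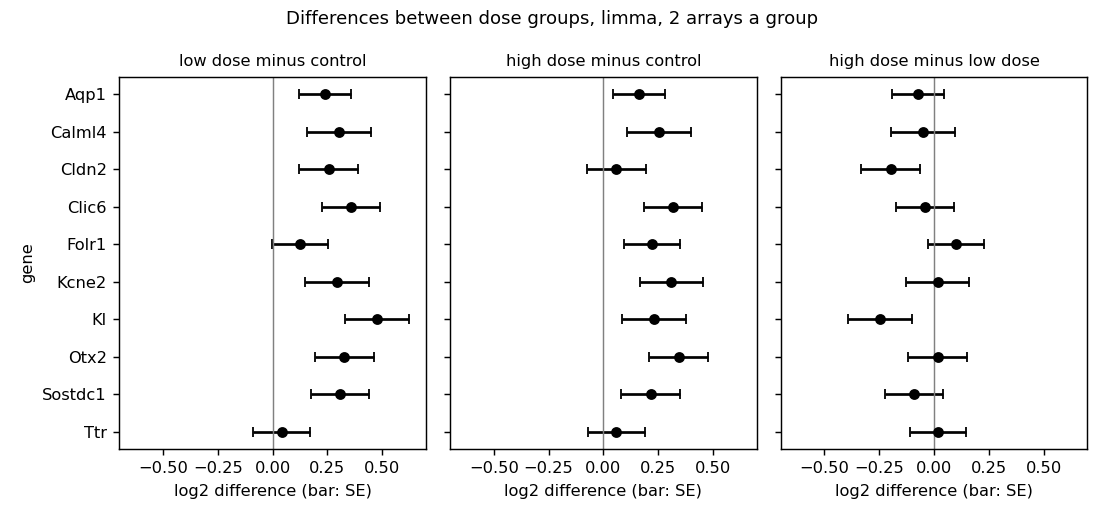
Log2 difference of each member between dose groups (horizontal axes), as points with the limma SE as bars, from 2 arrays a group. All 10 genes lie above 0 for low dose minus control and for high dose minus control, none past the adjusted threshold, and they lie on both sides of 0 for high dose minus low dose.

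Against the low dose, the high dose means were higher for 4 members and lower for 6, where 22.8% of all genes were higher and 77.2% lower, with a median of -0.0445 against -0.066 over all tested genes. None passed (limma, 0% of all genes called), no member had an unadjusted p under 0.05, as 6.21% of all genes had, and the adjusted p ran from 0.835 to 0.992. Kl had -0.25 (SE 0.15) and Folr1 0.098 (SE 0.13). High dose replicate 1 and low dose replicate 2 share side and date, and there the high dose value was the lower for all 10 members, with a median difference of -0.38, from -0.58 for Kl to -0.26 for Folr1. Over all genes 85.8% were lower in that pair, with a median of -0.12. These comparisons share arrays with each other. Fits to 2 arrays a group rest on the spread of all genes; an exact two-sided permutation test of 2 arrays against 2 cannot give a p below 0.333.

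The difference between high dose and control reversed between the hybridization dates. Side changed with date here: the high dose pool was left and the control pool right on the first date, and the reverse later. On the first date the high dose value was the lower for all 10 members, with a median difference of -0.15, from -0.37 for Cldn2 to -0.056 for Clic6. On the later date all 10 were higher, with a median of 0.65, from 0.22 for Ttr to 0.81 for Kcne2. Over all tested genes the medians were -0.085 and 0.023. Of these genes 77.6% were lower on the first date, 58.9% were higher on the later date, and 43.6% were both.

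The later date's difference less that of the first date was largest for Kcne2 and Kl, with 1.00 each, and Calml4, with 0.98. Cldn2, Otx2, Sostdc1 and Clic6 had 0.86, 0.85, 0.78 and 0.75, and Folr1, Aqp1 and Ttr had 0.65, 0.585 and 0.32. Each of these values rests on 4 single arrays. A limma fit of this difference, added after the reversal had been seen, called 7 of the 10 members, among 17 genes higher (0.145% of all genes) and 3 lower. The other 10 called higher were Kcnj13, Ecrg4, Adgra1, Igf2, Ppp2r5e, Irs4, Cartpt, Cldnd1, Dnajc1 and Krt18, of which Kcnj13 and Krt18 are in the list of other plexus genes, and the 3 lower were A330076H08Rik, Malat1 and Penk.

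The spread in that fit came from the pair of low dose arrays alone, which leaves 1 residual degree of freedom, and all genes shared an SD of 0.091. The members' own SD between the low dose arrays ran from 0.070 for Aqp1 to 0.19 for Folr1, with a median of 0.145, so the shared value is below that of 9 members. The calls of this fit are therefore too liberal for the members and are given as a description only. The dates also differ in side within both groups, so the change between dates equals the right minus left difference summed over control and high dose.

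Read by side, the left pool was below the right pool for 9 of 10 members in the controls, with a median of -0.39, and for all 10 at the high dose, with a median of -0.44. At the low dose, whose pools share the first date, the left pool was above the right for all 10, with a median of 0.21. Of all tested genes 78.4% were lower on the left in the controls (median -0.111) and 48.5% at the high dose (median 0.00423). At the low dose 83.8% of all tested genes were higher on the left (median 0.0936). Kl had left minus right differences of -0.56, 0.22 and -0.43 in control, low and high dose, and Kcne2 had -0.48, 0.15 and -0.52. By its main probe set Ttr was the exception in the controls, with 0.17, and had 0.25 and -0.49 at the low and the high dose. In the controls its probe sets 1451580_a_at and 1455913_x_at gave -0.17 and -0.050, and 1459737_s_at gave 0.23. The pattern of left below right in control and high dose and above it at the low dose was found in 28.9% of all tested genes. With dose group as a term, left minus right had a median of -0.21, with 10 members lower, where 54.1% of all genes were, and none past the threshold (limma, lowest adjusted p = 1.00, 0% of all genes called). At an unadjusted p under 0.05 there were 5 members, against 0.341% of all genes. All genes shared an SE of 0.107 in this fit, while each member's difference changed sign between the low and the high dose. These unadjusted p-values are therefore too liberal for the members and are given as a description only.

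**Figure D3:**
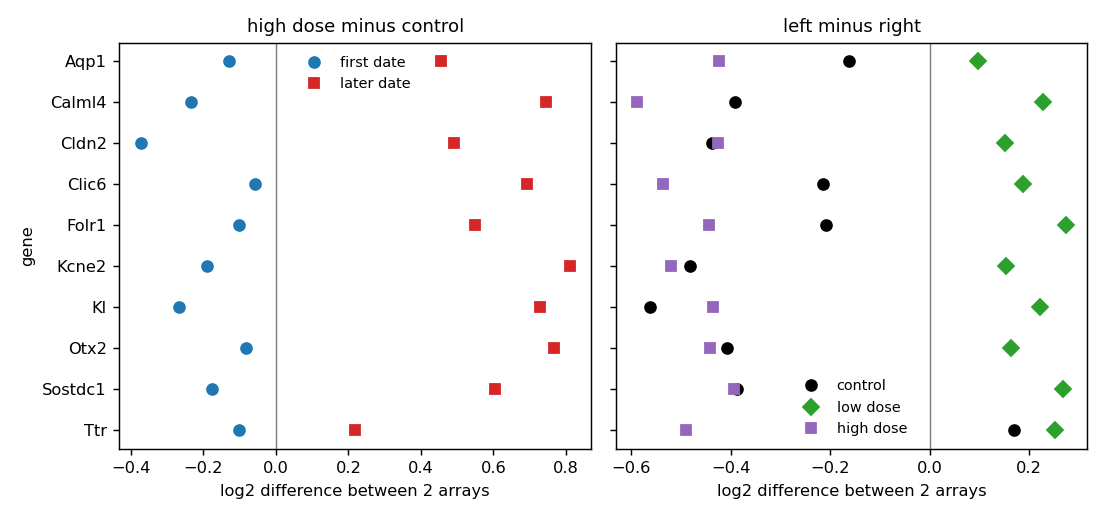
Log2 difference between 2 single arrays for each member (vertical axis). The left panel gives high dose minus control on the first date (circles, all below 0) and on the later date (squares, all above 0). The sides of the high dose and control pools swap between these dates. The right panel gives left minus right within control, low dose and high dose. All 10 low dose points lie there above 0 and all 10 high dose points below.

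Later against first date, with dose group as a term, gave a median of 0.058 over the members against -0.057 over all tested genes. Ttr rose by 0.33 (SE 0.092, limma adjusted p = 0.0100) and was the 1 member of 10 past the threshold, where 6.97% of all genes passed. In the other 9 members the controls fell on the later date by values between -0.56 and -0.16, and the high dose rose by values between 0.39 and 0.59. Their mean change was therefore between -0.064 for Kl and 0.16 for Clic6. In its pairs Ttr changed by 0.17 in the controls and 0.49 at the high dose. The Ttr call was lost with the mean of its probe sets (0.26, adjusted p = 0.0940), with side as a term (adjusted p = 0.0741), without either high dose array (0.17, adjusted p = 0.493) and under 3 further alternatives. RNA integrity numbers (RIN) in the labels are 8.7 and 7.9 for the controls, 9.1 and 8.9 at the low dose and 8.5 and 8.2 at the high dose, so the array lowest in RIN was lowest for 9 members. With RIN as a covariate the high dose minus control median was 0.22 and the low dose minus control median 0.20.

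Of 29 other genes of the plexus, 22 were tested, and they followed the same arrays with smaller differences. Their mean level relative to their own means was -0.18 in control replicate 2, 0.13 in low dose replicate 2, -0.115 in high dose replicate 1 and 0.13 in high dose replicate 2. At the low dose 21 of 22 had higher means, with a median of 0.20, and at the high dose 19 of 22, with a median of 0.105. None was called in either comparison, and 4 and 0 had an unadjusted p under 0.05. On the first date 19 of 22 were lower at the high dose (median -0.080), and on the later date all 22 were higher (median 0.26). Of all tested genes 77.6% were lower on the first date and 58.9% higher on the later date. Igfbp2, a binding protein of insulin-like growth factors, had 0.41 at the low and 0.15 at the high dose, and the acute phase gene Lbp had 0.30 and 0.19. Kcnj13 had 0.25 and 0.14. Htr2c, a serotonin receptor gene of plexus epithelium that neurons also express, had 0.26 at the low dose and -0.030 at the high dose, and Cdkn1c, an inhibitor of the cell cycle, 0.048 and 0.25. Transporters and enzymes that drive fluid secretion but are also found in other brain cells had medians of 0.12 at the low and -0.0082 at the high dose, over 9 tested genes. Slc4a2 (0.28), Slc4a5 (0.22) and Car14 (0.21) had the largest low dose differences among them, while Car12 and Clcn2 had -0.17 and -0.14 at the high dose.

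Markers of the tissues that border the plexus moved on some of the same arrays. Ependyma, the ciliated lining of the ventricle, had 11 of 13 markers tested, and their mean level was -0.14 in control replicate 2, 0.12 in low dose replicate 2, 0.058 in high dose replicate 1 and 0.079 in high dose replicate 2. Its defining factor Foxj1 did not pass the filter on dim probe sets. At the high dose all 11 had higher means (median 0.16), led by Tmem212 (0.29), Mia (0.23), Ak7 (0.22), Ccdc153 (0.21) and Cfap126 (0.19), and all 11 were higher on either date, unlike the plexus markers. Of meningeal and fibroblast genes, 12 of 13 were tested. Their mean level was -0.22 in control replicate 2, 0.16 in low dose replicate 2, 0.085 in high dose replicate 1 and 0.073 in high dose replicate 2. At the high dose all 12 had higher means (median 0.18), with Fmod at 0.36, Col3a1 at 0.32 and Igf2 at 0.27, while at the low dose Igf2 had 0.43, Vtn 0.25 and Dcn -0.30. None of these was called. The summed log2 level of the ependymal genes was 94.73 and 93.52 in the controls, 94.15 and 96.4 at the low dose, and 95.72 and 95.95 at the high dose. That of the meningeal genes was 108.6 and 105.9, 107.1 and 110.4, and 109.5 and 109.4 in that order. The part of these tissues in the plexus values was not tested.

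**Figure D4:**
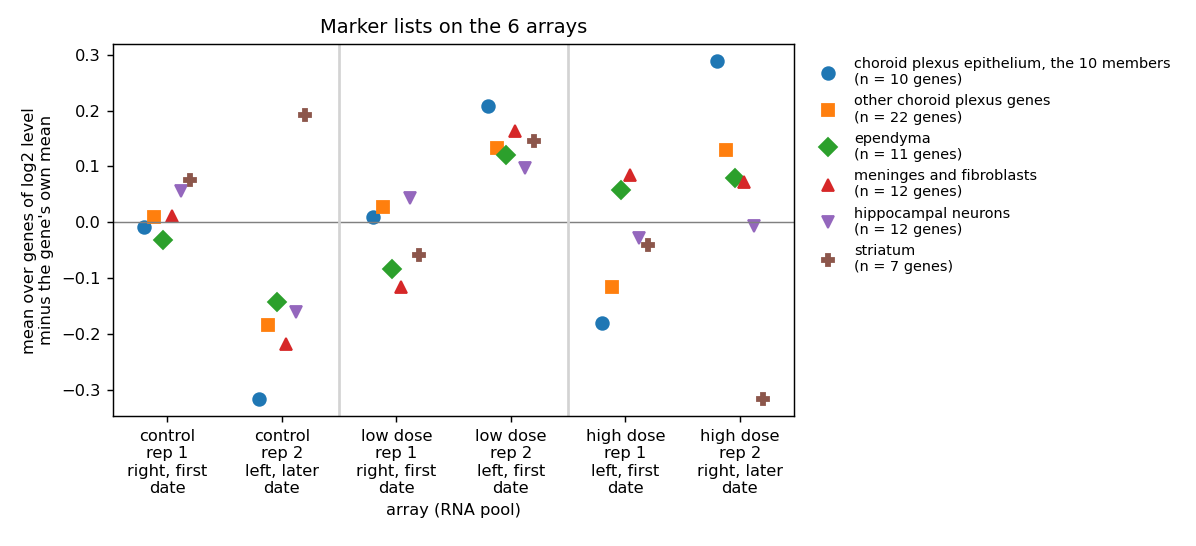
Mean over each marker list of the log2 level minus the gene's own mean (vertical axis) on each array (horizontal axis). Plexus lists are low on control replicate 2 and high dose replicate 1 and high on low dose replicate 2 and high dose replicate 2. Ependymal and meningeal lists lie above 0 on both high dose arrays, and the striatal list is lowest on high dose replicate 2. Every list shown lies above 0 on low dose replicate 2. The ependymal, meningeal and hippocampal neuron lists are, like the plexus lists, lowest on control replicate 2.

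Markers of other tissue in and around the hippocampus took courses that differed in part from those of the plexus markers. The mean level of the 7 tested striatal genes was lowest on high dose replicate 2, with -0.32, and highest on control replicate 2, with 0.19. On the later date all 7 were lower at the high dose, the reverse of the plexus markers. On the first date 6 of 7 were lower, the same direction as the plexus markers. Single genes departed from the mean: Drd1 was lowest on low dose replicate 1. Ppp1r1b was highest on low dose replicate 2, and Pde10a and Rgs4 on control replicate 1. Drd1 had -0.34 at the low and -0.32 at the high dose, while Penk (-0.39), Tac1 (-0.38), Pde10a (-0.33) and Ppp1r1b (-0.31) had larger differences at the high dose. The 6 neocortical genes had medians of -0.16 and -0.25 at the low and the high dose, with Ccn2 at -0.61 and Cux2 at -0.34 at the low dose and Tbr1 at -0.38, Lamp5 at -0.28 and Rorb at -0.20 at the high dose. The 8 thalamic genes had medians of 0.089 and -0.043, with Zic1 at 0.41, Slc17a6 at -0.27, Rora at -0.14 at the high dose and Calb2 at 0.23 and Tcf7l2 at 0.18 at the low dose. The 6 endothelial genes had medians of 0.077 and 0.030, with Esam (0.15), Emcn (0.12) and Cldn5 (0.11) at the low dose, Flt1 at -0.11 and Plvap, a gene of fenestrated capillaries, at 0.077 at the high dose. Their mean level was lowest on control replicate 2, with -0.0565, as in the plexus lists. At the high dose 5 of 6 were lower on the first date and 4 of 6 higher on the later date. The 12 genes of hippocampal neurons had medians of 0.14 and 0.047, with Spink8 (0.32), Dsp (0.25), Fibcd1 (0.25), Neurod6 (0.24) and Prox1 (-0.23) at the low dose. Their mean level was also lowest on control replicate 2, with -0.16. At the high dose 10 of 12 were lower on the first date (median -0.0686) and 10 of 12 higher on the later date (median 0.116). Of all tested genes 77.6% were lower and 58.9% higher on these dates. Of the red blood cell genes only Bpgm was tested, with 0.12 and 0.11. None of the genes of these lists passed the threshold in either dose comparison with control.

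By likeness to the members' mean over the 6 arrays, the 10 closest of 539 other tested genes with a range of at least 0.5 log2 were Ecrg4, Krt18, Steap1, Kcnj13, Igf2, Mgp, Haghl, Igfbp2, H1f2 and Prr32, with Pearson correlations from 0.989 down to 0.826. These are descriptions over 6 arrays that share their dates and pools, without a test. Of the 10, Krt18, Steap1, Kcnj13 and Igfbp2 belong to the list of other plexus genes, 7 of whose members were among the 539. Ecrg4 measured 10.69 and 10.18 in the controls, 10.68 and 10.93 at the low dose, and 10.47 and 11 at the high dose. Kcnj13 measured 10.04 and 9.70, 10.01 and 10.23, and 9.61 and 10.40 in that order. Both were highest on high dose replicate 2, and Ecrg4 was lowest on control replicate 2 while Kcnj13 was lowest on high dose replicate 1.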

How the data were processed

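Expression was measured on 6 Affymetrix mouse genome arrays, 1 for each RNA pool. The deposited values are log2 levels of 45101 probe sets that the authors made with RMA in R 3.0.1, per the submitters' processing notes. Its settings and the build were not given in the sources used here. Values ran from 6.10 to 15.31, from which the log2 scale was taken. Array medians lay between 7.79 and 7.80, and the number of arrays limits the precision.

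The platform annotation gave exactly 1 symbol for 34945 probe sets, and 34741 were matched to current symbols by Entrez identifier. A gene was tested where at least 2 arrays held it above their own median, which left 11743 genes. Linear models were fitted with limma 3.58.1 (R 4.3.3; lmFit, eBayes), with two-sided tests, Benjamini-Hochberg adjustment over all tested genes and a threshold of 0.05. The dose fit used all 6 arrays and a mean for each dose group; side and date were fitted beside dose group. In the side, the date and the added reversal fit the prior degrees of freedom were infinite, so all genes shared 1 spread. Fits were tested on simulated arrays.

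Named genes were all members, up to 5 tested genes of every other list with the largest difference from control, and the 10 genes most like the members' mean. Genes beyond them were named after their values were seen, among them those of the reversal test. The members and lists were chosen with earlier results of these data known. Replicate numbers pair control with high dose, where they equal the labelled date: over genes, their changes from replicate 1 to 2 correlated at 0.540. The same correlation was 0.0765 for control with low dose and 0.133 for the 2 treated groups. Alternatives covered the filter, the probe set, the scaling, the variance prior, RIN, date, side, the replicate number and leaving out each array.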

Additional observations from a re-analysis of the deposited data

Results flagged for a closer look

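All 10 markers drew attention because the high dose array lay below the control array on the first date and above it on the later date. This order was found in 43.6% of all tested genes. The sides of the high dose and control pools also swapped between the dates. The later date's difference less that of the first date was 1.00 for Kcne2, 0.996 for Kl, 0.979 for Calml4, 0.863 for Cldn2, 0.848 for Otx2, 0.78 for Sostdc1, 0.75 for Clic6, 0.652 for Folr1, 0.585 for Aqp1 and 0.321 for Ttr on the log2 scale. The fit of this difference given above took its spread from the low dose pair alone and was made after the pattern was seen, so it is no support for it.

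They drew attention again because left and right pools were ordered one way at the low dose and the opposite way at the high dose. Of all tested genes 83.8% were higher on the left at the low dose and 48.5% were lower on the left at the high dose. The share of genes with both is not given here. The low dose value of left minus right less the high dose value was 0.674 for Kcne2, 0.658 for Kl, 0.816 for Calml4, 0.577 for Cldn2, 0.605 for Otx2, 0.663 for Sostdc1, 0.723 for Clic6, 0.717 for Folr1, 0.522 for Aqp1 and 0.741 for Ttr. This second difference was not tested.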

How the results depend on the processing

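The alternative of the first date's arrays alone was chosen after seeing the data. A fit without 1 array leaves a lone array that is assumed to vary like the other groups. The replicate block is the fit with the replicate number as a term, and the date pairs control and high dose. For high dose minus control, genes called went from 1 to 0 with no filter, 2 with the filter on all 6 arrays, 0 with the mean of probe sets, 0 with quantile normalization, 14 with a trended, robust prior, 39 with RIN, 10 with the replicate block, 44 with date, 3 with side, 10 with date and side and 14 with the first date's arrays alone, and to between 0 and 178 without 1 array. For low dose minus control, genes called went from 5 to 0 with no filter, 0 with the mean of probe sets, 0 with quantile normalization, 17 with a trended, robust prior, 20 with RIN, 32 with the replicate block, 21 with date, 17 with side, 9 with date and side and 18 with the first date's arrays alone, and to between 0 and 546 without 1 array. For high dose minus low dose, genes called went from 0 to 25 with a trended, robust prior, 4 with RIN, 45 with the replicate block, 3 with date, 11 with side, 1 with date and side and 9 with the first date's arrays alone, and to between 0 and 152 without 1 array. For left minus right, genes called went from 0 to 17 with RIN, and to between 0 and 2 without 1 array. For later minus first date, genes called went from 818 to 517 with the mean of probe sets, 1500 with quantile normalization, 22 with RIN and 352 with side, and to between 154 and 764 without 1 array. For high dose minus control, members called went from 0 to between 0 and 3 without 1 array. For low dose minus control, members called went from 0 to 1 with a trended, robust prior, 1 with the replicate block and 2 with date, and to between 0 and 7 without 1 array. For high dose minus low dose, members called went from 0 to 1 with the first date's arrays alone. For later minus first date, members called went from 1 to 0 with the mean of probe sets, 0 with quantile normalization, 0 with a trended, robust prior, 0 with RIN and 0 with side, and to between 1 and 6 without 1 array. For high dose minus control, the median over members went from 0.227 to -0.152 with the first date's arrays alone. For high dose minus low dose, the median over members went from -0.0445 to between -0.287 and 0.232 without 1 array. For later minus first date, the median over members went from 0.0584 to 0.612 with RIN, and to between -0.389 and 0.442 without 1 array. In the reversal test the genes called went from 20 to 12 with the mean of probe sets, and ran from 12 to 27 over the alternatives. The members it called higher went from 7 to between 5 and 8. In high dose minus control the sign turned with the first date's arrays alone for Aqp1 (-0.129), Calml4 (-0.235), Cldn2 (-0.372), Clic6 (-0.0564), Folr1 (-0.103), Kcne2 (-0.191), Kl (-0.268), Otx2 (-0.081), Sostdc1 (-0.175) and Ttr (-0.101). Without 1 array the sign in high dose minus control turned for Aqp1 (-0.0482 to 0.375), Calml4 (-0.0394 to 0.548), Cldn2 (-0.16 to 0.278), Kl (-0.0505 to 0.511) and Ttr (-0.186 to 0.304). Without 1 array the sign in low dose minus control turned for Folr1 (-0.0127 to 0.262) and Ttr (-0.085 to 0.167). In high dose minus low dose the sign turned with the mean of probe sets for Ttr (-0.00893), with quantile normalization for Calml4 (0.0345), Clic6 (0.047) and Ttr (-0.0305), with RIN for Calml4 (0.0285), Sostdc1 (0.025) and Ttr (-0.262), with date for Ttr (-0.146), with date and side for Ttr (-0.146) and with the first date's arrays alone for Folr1 (-0.123), Kcne2 (-0.243), Otx2 (-0.204) and Ttr (-0.227). Without 1 array the sign in high dose minus low dose turned for Aqp1 (-0.286 to 0.138), Calml4 (-0.342 to 0.246), Cldn2 (-0.409 to 0.0154), Clic6 (-0.308 to 0.227), Folr1 (-0.123 to 0.32), Kcne2 (-0.243 to 0.276), Otx2 (-0.204 to 0.237), Sostdc1 (-0.288 to 0.106) and Ttr (-0.227 to 0.263). Without 1 array the sign in left minus right turned for Folr1 (-0.326 to 0.0328) and Ttr (-0.16 to 0.21). In later minus first date the sign turned with the mean of probe sets for Kl (0.00929) and Sostdc1 (-0.0137), with centring on medians for Sostdc1 (-0.00855), with quantile normalization for Cldn2 (0.038) and Kl (0.00344) and with RIN for Cldn2 (0.61) and Kl (0.618). Without 1 array the sign in later minus first date turned for Aqp1 (-0.162 to 0.423), Calml4 (-0.391 to 0.588), Cldn2 (-0.438 to 0.425), Clic6 (-0.214 to 0.535), Folr1 (-0.209 to 0.443), Kcne2 (-0.482 to 0.519), Kl (-0.562 to 0.435), Otx2 (-0.408 to 0.441) and Sostdc1 (-0.387 to 0.394). The causes of these shifts were not tested, except that after quantile normalization a level depends on rank alone, which leaves Ttr, at the top of the arrays, little room to move. The reversal test could not be fitted without either low dose array.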
